A study of Mus musculus with 3 samples.

Results

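The calcium pumps, calcium channel and calcium-mobilising hormone of milk secretion were examined as 10 of the 21881 gene symbols quantified in these mammary tumours. They were chosen by symbol for their roles, with no threshold on a measured value, though with earlier results of these data known. Atp2b1, Atp2b2, Atp2b3 and Atp2b4 encode the plasma membrane calcium pumps (PMCA), Atp2c1 and Atp2c2 the secretory pathway pumps of the Golgi (SPCA), Atp2a2 and Atp2a3 pumps of the endoplasmic reticulum (SERCA), Orai1 a plasma membrane calcium channel, and Pthlh parathyroid hormone-related protein (PTHrP). The data are total RNA sequencing libraries of 3 tumours grown from NDL(UCD), an ErbB2-driven mammary cancer line of the mouse that is passed on by transplantation. The cultured line was injected into uncleared mammary fat pads of female mice (strain labelled FVB/N, and FVB/NJ in the growth protocol) aged 6 to 8 weeks, and the tumours were snap-frozen at a width of 5 to 10 mm. Each tumour came from a different mouse of 1 strain, all carry the same line, and no normal gland, lactating gland or other tumour stands beside them, so genes are compared with each other and tumours with each other. The host fat pads keep their own epithelium and stroma, and NDL mice are known to express an activated Erbb2 transgene from a mammary tumour virus promoter.

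In the lactating gland calcium enters the secretory cell at its blood-facing side, largely through Orai1, which opens when the sensors Stim1 and Stim2 report that the stores of the endoplasmic reticulum are low. SERCA pumps refill those stores, SPCA pumps load the Golgi, where casein micelles take up calcium, and PMCA2, the product of Atp2b2, is the main pump of the milk-facing membrane and is strongly induced in lactation. PTHrP is secreted by the lactating gland and acts on bone through its receptor Pth1r to release calcium.

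The deposited intervals implied 11.7, 12.4 and 13.4 M (1e6) fragments on genes with status OK in tumours 1, 2 and 3. Fragments outside those genes are not counted, so these are not the full library sizes. Levels are in FPKM, fragments scaled to transcript length and to library size, so they are already scaled by length. The libraries differed along base composition: the 10% of genes with the lowest transcript GC content deviated from their own mean over the tumours by a median of 0.74, -0.14 and -0.59 log2 units in tumours 1, 2 and 3, and the 10% with the highest by -0.46, 0.12 and 0.34. Values with these trends in GC content and transcript length removed are given beside the deposited ones for many comparisons of tumours. Where only deposited values are listed, a pattern over tumours can carry these trends. Of 8 luminal and alveolar genes 7 were above 1 FPKM, against 54.2% of all genes tested. All 5 macrophage and all 5 fibroblast markers were above it too, so this does not test the tissue label. Erbb2, the receptor of the model, was at 199.9, 195 and 189.7 FPKM in tumours 1, 2 and 3. With the trends removed it was at 260, 182 and 157 FPKM. These values do not separate the transgene from the mouse's own Erbb2.

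Of the 10 genes, 9 were listed above 0 and could be tested against 1 FPKM, a conventional level with no biological meaning of its own. Above that level lay 7, namely Atp2a2, Atp2c1, Atp2b1, Orai1, Pthlh, Atp2c2 and Atp2b4, and below it lay Atp2a3 and Atp2b2 (limma, Benjamini-Hochberg adjusted p under 0.05 over 18028 genes). Over all genes tested, 54.2% were called above and 32.5% below. The median of the 9 was 3.37 FPKM, against 2.44 FPKM over all genes listed above 0. Atp2b3, a PMCA best known from brain, was listed at 0 in all 3 tumours. Fewer cells of a type and less RNA per cell cannot be told apart in bulk tumour RNA.

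**Figure D1:**
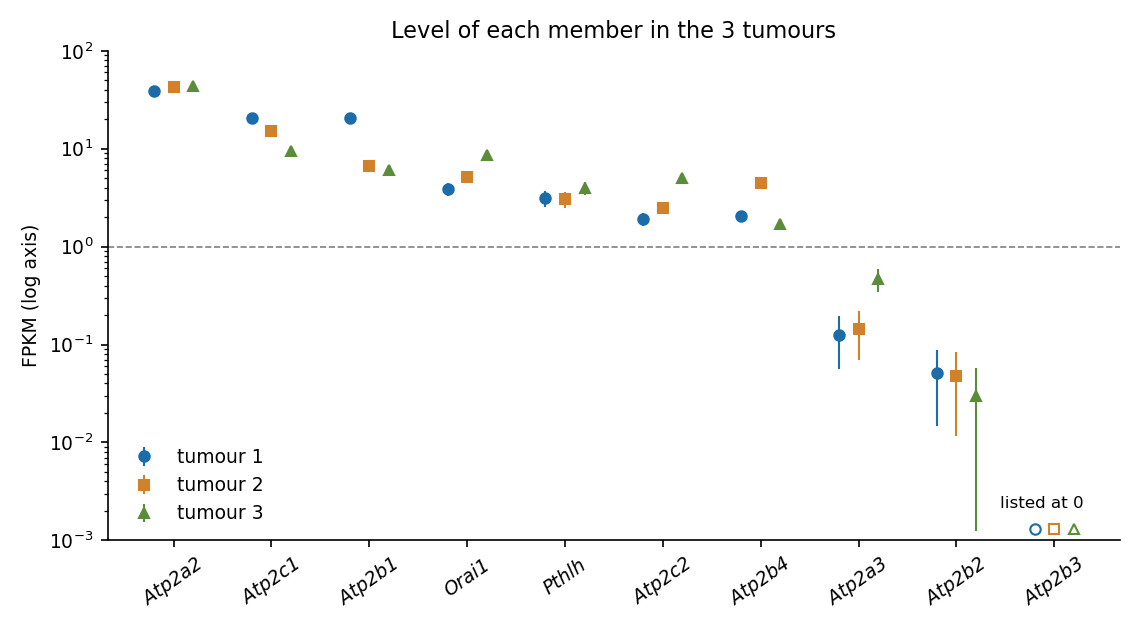
FPKM of the 10 genes in each tumour on a log axis, ordered by mean; points are tumours, bars are the deposited intervals and the dashed line marks 1 FPKM. Atp2a2 lies near 40 in every tumour, while Atp2b2 stays below 0.06 and Atp2b3 is listed at 0.

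Atp2b2 was almost undetected in tumours that held abundant RNA of some milk protein genes. It is annotated on mm9 chromosome 6, 113695662 to 113992020, and was listed at 0.0513, 0.0482 and 0.0296 FPKM in tumours 1, 2 and 3, which rested on 7.91, 6.99 and 4.36 implied fragments. The 3 values lay within each other's deposited intervals, of which the widest ran from 0.0148 to 0.0878 FPKM in tumour 1. Its mean of 0.0430 ± 0.0118 FPKM (SD, n = 3) was below 1 FPKM (limma adjusted p = 4.5e-07) and exceeded only 14.5% of genes listed above 0. The kappa-casein gene Csn3 stood at 2761, 3037 and 1884 FPKM and the alpha-lactalbumin gene Lalba at 72.2, 321.5 and 440.1 FPKM in the same tumours. Not every milk protein gene was high: the beta-casein gene Csn2 stood at 14.3, 6.24 and 7.19 FPKM and the whey acidic protein gene Wap at 0.0946, 2.36 and 0.530 FPKM. With the trends removed Csn3 stood at 1330, 3643 and 3032 FPKM, lowest in tumour 1 in place of tumour 3. Csn2 then stood at 6.41, 7.64 and 12.2 FPKM, highest in tumour 3 in place of tumour 1. FPKM is given per gene here, so the splice forms of Atp2b2 are not separated.

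The RefSeq promoter table (GRCm38.p6, 250 bases before to 50 bases after each annotated start) held 11 windows for 7 of the 10 genes. Those of Atp2b2, the lactation pump, of Atp2b1 and Atp2b4, the paralogs that were detected, and of Orai1 follow here to set their sequences side by side. They were searched on both strands for TTCNNNGAA, the palindrome bound by STAT factors, including STAT5 of the prolactin pathway, for TATAAA, and for GGGCGG, the Sp1 GC box. Matches are in capitals and the rest in lower case, 5′ to 3′ on the gene's strand.
Atp2b2, most upstream of 3 windows, chr6:114042031-114042330, minus strand: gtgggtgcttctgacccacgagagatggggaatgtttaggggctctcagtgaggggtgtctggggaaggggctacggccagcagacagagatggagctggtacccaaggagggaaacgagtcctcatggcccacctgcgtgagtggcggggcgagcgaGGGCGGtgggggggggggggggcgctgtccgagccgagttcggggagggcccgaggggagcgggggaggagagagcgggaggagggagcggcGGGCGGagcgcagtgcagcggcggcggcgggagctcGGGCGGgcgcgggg
Atp2b1, the first of its pair of windows, chr10:98914392-98914691, plus strand: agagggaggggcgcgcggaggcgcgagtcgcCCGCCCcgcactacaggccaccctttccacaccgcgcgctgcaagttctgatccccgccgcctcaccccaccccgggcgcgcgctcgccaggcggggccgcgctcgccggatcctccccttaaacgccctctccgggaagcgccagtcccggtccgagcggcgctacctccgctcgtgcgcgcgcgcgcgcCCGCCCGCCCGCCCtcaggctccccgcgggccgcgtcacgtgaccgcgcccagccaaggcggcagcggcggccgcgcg
Atp2b4, chr1:133753698-133753997, minus strand: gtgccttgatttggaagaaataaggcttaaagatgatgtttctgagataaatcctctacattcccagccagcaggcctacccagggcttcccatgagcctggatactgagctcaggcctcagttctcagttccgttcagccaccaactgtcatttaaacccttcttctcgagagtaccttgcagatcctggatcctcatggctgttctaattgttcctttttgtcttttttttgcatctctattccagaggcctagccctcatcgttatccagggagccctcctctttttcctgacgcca
Orai1, chr5:123014824-123015123, plus strand: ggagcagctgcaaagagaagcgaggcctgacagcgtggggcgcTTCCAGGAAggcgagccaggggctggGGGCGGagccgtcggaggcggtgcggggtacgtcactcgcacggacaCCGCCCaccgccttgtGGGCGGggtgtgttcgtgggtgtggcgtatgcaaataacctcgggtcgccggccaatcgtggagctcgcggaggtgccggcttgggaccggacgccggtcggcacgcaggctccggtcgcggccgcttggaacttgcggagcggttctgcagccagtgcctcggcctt

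TTCNNNGAA was found in 1 of the 11 windows, that of Orai1, where its first base lies at -207 relative to the start; 8.33% of all 32544 promoter windows hold it. None of the 3 Atp2b2 windows held it, and neither did those of Atp2b1, Atp2b4 and Atp2c1, which were at higher levels. Stat5a was at 5.09, 11.3 and 11.8 FPKM and Stat5b at 5.69, 9.49 and 11.4 FPKM in tumours 1, 2 and 3. GGGCGG was found in the windows shown for Atp2b2, Atp2b1 and Orai1, with 3, 4 and 3 matches, and in 35.9% of all windows. TATAAA was in none of the 11 and in 13.6% of all. The Atp2b4 window held none of the motifs and had a GC content of 47.7%, against 72.7%, 79.3% and 70.3% in the windows shown for Atp2b2, Atp2b1 and Orai1; the median window has 53.0%. The other two Atp2b2 windows had 54.0% GC with no GGGCGG and 58.7% GC with 2 matches. A match is a description of letters and not of binding.

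The PMCA signal came mainly from Atp2b1. Atp2b1, the PMCA found in most cell types (mm9 chromosome 10, 98377786 to 98488777), was at 20.8, 6.68 and 6.02 FPKM in tumours 1, 2 and 3. Tumour 1 was high and the other two were close to each other. Atp2b4, another broadly expressed PMCA (mm9 chromosome 1, 135600842 to 135650098), was at 2.08, 4.46 and 1.70 FPKM, with tumour 2 high. Of the summed PMCA signal Atp2b1 held 90.7%, 59.7% and 77.7%, Atp2b4 held 9.06%, 39.9% and 21.9%, and Atp2b2 held 0.224%, 0.430% and 0.382%.

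FPKM of Atp2b2 was 405-, 139- and 204-fold lower than that of Atp2b1 in tumours 1, 2 and 3. On the log2(FPKM + 0.1) scale of the tests, where the added 0.1 makes differences from genes near 0 too small, Atp2b2 minus Atp2b1 was -6.06 ± 0.91 (SD, n = 3), negative in 3 of 3 tumours. For each of 12 such pairs, all genes were set against the second gene of the pair in 1 limma fit and adjusted over all genes. Those p-values can be too small, because every difference in a fit carries the spread of the same subtracted gene, so a second adjusted p is given from the standard errors of both genes in the test against 1 FPKM. For Atp2b2 minus Atp2b1 they were 1.1e-15 and 5.4e-06, and 53.9% of all genes were also called below Atp2b1. The exact sign-flip permutation test over 3 tumours cannot go below p = 0.25, the value it gave for all 12 pairs. Atp2b4 minus Atp2b1 was -1.87 ± 1.35, negative in 3 of 3 tumours (limma adjusted p = 0.030 and 0.0092), but it was -0.57 in tumour 2 and -3.26 in tumour 1. With pseudocount 1 in place of 0.1 the first adjusted p was 0.054, and without tumour 2 or tumour 3 it was 0.22 and 0.33.

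**Figure D2:**
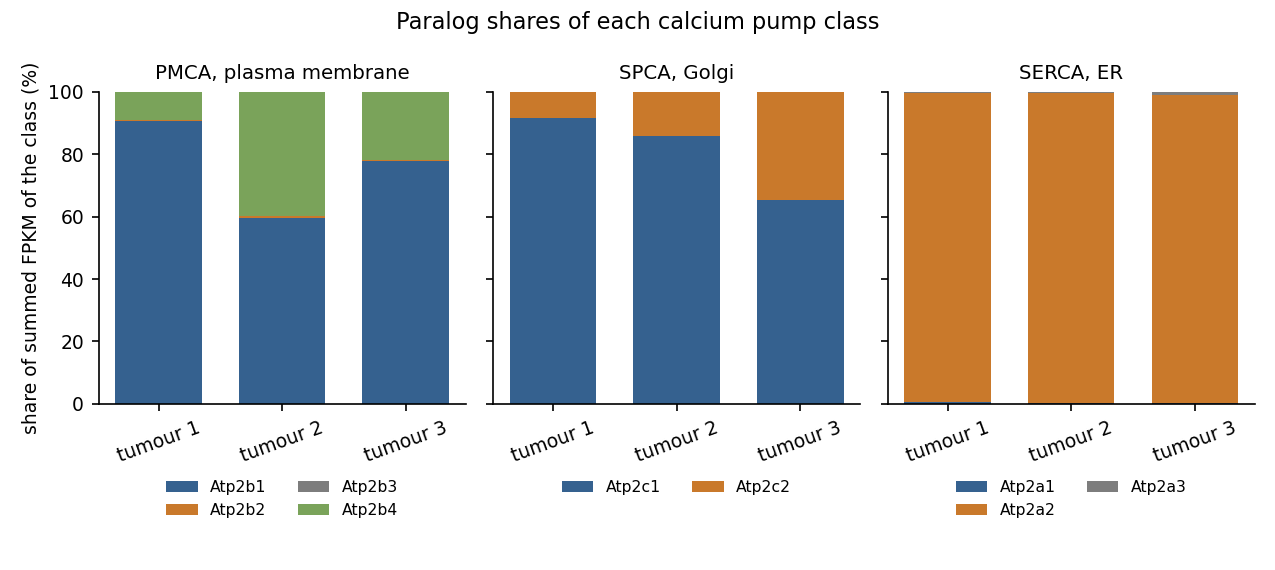
Share of each paralog in the summed FPKM of its pump class, in percent, per tumour. Atp2b2 is too thin to see in the PMCA bars, Atp2c2 grows to 34.7% of SPCA in tumour 3, and Atp2a2 fills at least 98.5% of SERCA in each tumour.

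Both Golgi pumps were expressed, and their balance differed between tumours. Atp2c1, the SPCA of most tissues (mm9 chromosome 9, 105313692 to 105397447), was at 20.7, 15.1 and 9.52 FPKM in tumours 1, 2 and 3. Atp2c2, the SPCA of secretory epithelia such as the mammary gland (mm9 chromosome 8, 122223909 to 122281618), was at 1.90, 2.48 and 5.06 FPKM. Tumour 1 was thus highest for one and lowest for the other, and the ranges of the genes did not overlap. Atp2c2 minus Atp2c1 was -2.28 ± 1.26 log2 units (SD, n = 3), negative in 3 of 3 tumours (limma adjusted p = 8.0e-06 and 0.00089, with 72.0% of all genes called below Atp2c1). Without tumour 2 the first adjusted p was 0.066.

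The share of Atp2c2 in the SPCA sum was 8.40%, 14.1% and 34.7% in tumours 1, 2 and 3 as deposited, and 16.6%, 12.3% and 22.2% with the GC and length trends removed. The mean share was 19.1% ± 13.8 (SD, n = 3), and 11.2% without tumour 3. Atp2c1 has a transcript of 41.2% GC and Atp2c2 one of 57.7% GC. With the trends removed Atp2c1 was at 13.2, 16.1 and 13.95 FPKM, so that tumour 1 was no longer highest, whereas Atp2c2 was at 2.63, 2.26 and 3.99 FPKM, still highest in tumour 3.

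Atp2a2 was the most abundant pump gene and had the lowest ratio between tumours among the pumps tested. This gene, which encodes SERCA2, the general pump of the endoplasmic reticulum and the pump of heart and slow muscle (mm9 chromosome 5, 122903522 to 122952234), was at 38.4, 42.2 and 44.0 FPKM in tumours 1, 2 and 3, above 94.7% of genes listed above 0. The highest tumour exceeded the lowest by 1.14-fold, and by 1.12-fold with the trends removed. The 6 skeletal muscle markers Myh1, Myh2, Myh4, Ckm, Actn3 and Tnnt3 summed to 0.147, 0.232 and 0.0930 FPKM. No myosin gene of slow or heart muscle was among them. The part of muscle cells in the Atp2a2 values was not tested. Atp2a2 held 99.1%, 99.5% and 98.5% of the summed SERCA signal.

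Atp2a3, which encodes SERCA3, a pump known from blood cells, endothelium and some epithelia (mm9 chromosome 11, 72774671 to 72806545), was at 0.126, 0.145 and 0.467 FPKM, with tumour 3 high. Its FPKM was 304-, 292- and 94.2-fold lower than that of Atp2a2, and Atp2a3 minus Atp2a2 on the log2(FPKM + 0.1) scale was -7.04 ± 0.66, negative in 3 of 3 tumours (limma adjusted p = 1.0e-06 and 2.8e-07, with 91.9% of all genes called below Atp2a2). Its mean of 0.246 ± 0.192 FPKM (SD, n = 3) was below 1 FPKM (limma adjusted p = 0.00086), but not with FPKM rescaled to equal totals, which lifts every level (0.19). Atp2a1, the SERCA of fast skeletal muscle, was at 0.220, 0.0691 and 0.180 FPKM.

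Summed marker genes of blood cells were, like Atp2a3, highest in tumour 3. With the trends removed Atp2a3 was at 0.166, 0.134 and 0.383 FPKM in tumours 1, 2 and 3. From tumour 1 to tumour 2 the sums rose. Atp2a3 rested on only 13.0 and 14.9 implied fragments in these tumours, with overlapping intervals, which cannot show whether it rose too. In tumour 3 each sum was mostly 1 gene, Lyz2 (602 FPKM) for macrophages, Cd3g (4.87 FPKM) for lymphocytes and Pf4 (5.19 FPKM) for platelets. All 5 macrophage markers were highest in tumour 3, with sums of 215, 384 and 826 FPKM in tumours 1, 2 and 3 (267, 353 and 731 FPKM with the trends removed). The 8 lymphocyte markers summed to 1.76, 3.86 and 7.71 FPKM (1.54, 3.95 and 9.85 FPKM with the trends removed), with 5 highest in tumour 3 and the B-cell gene Ms4a1 listed at 0 in all but 1 tumour. The 5 platelet and megakaryocyte markers summed to 1.64, 4.14 and 6.80 FPKM (2.18, 3.79 and 5.86 FPKM with the trends removed). As deposited all 5 were highest in tumour 3, though Gp1ba only by little, at 0.471, 0.447 and 0.489 FPKM. With the trends removed Itga2b (0.881, 0.419 and 0.552 FPKM) and Gp1ba (0.618, 0.408 and 0.408 FPKM) were highest in tumour 1. Endothelial markers summed to 10.9, 16.3 and 15.4 FPKM, with 2 of 5 highest in tumour 3. The part of these cells in the Atp2a3 values was not tested.

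Across classes, FPKM of Atp2b2 was 37.0-, 51.5- and 171-fold lower than that of Atp2c2 in tumours 1, 2 and 3, and 749-, 876- and 1489-fold lower than that of Atp2a2. On the log2(FPKM + 0.1) scale the differences were -4.39 ± 0.83 (limma adjusted p = 1.4e-14 and 8.8e-06) and -8.19 ± 0.21 (2.1e-08 and 1.1e-08). The background for the first was 41.7% of genes called below Atp2c2. Atp2c2 was in turn lower than Atp2a2 by 20.2-, 17.0- and 8.70-fold (-3.80 ± 0.62 on that scale; 1.2e-05 and 1.3e-05). All 3 differences were negative in 3 of 3 tumours. The summed level was 41.9 ± 2.96 FPKM for SERCA, 18.3 ± 4.07 FPKM for SPCA and 13.95 ± 7.95 FPKM for PMCA (SD, n = 3).

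**Figure D3:**
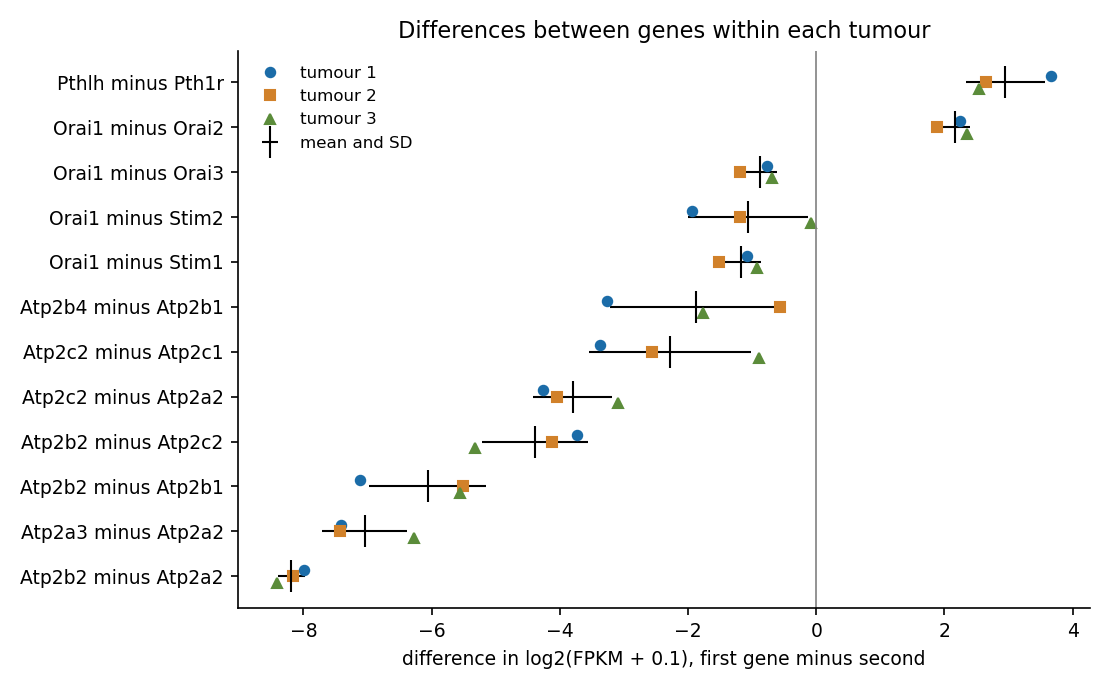
Difference in log2(FPKM + 0.1) between the first and the second gene of 12 pairs; points are tumours, ticks and bars are the mean and SD over n = 3. Pairs with Atp2b2 or Atp2a3 lie furthest left, and Atp2b4 minus Atp2b1 spreads from -3.26 to -0.57.

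Orai1, the pore of store-operated calcium entry (mm9 chromosome 5, 123465083 to 123480461; promoter shown above), was at 3.87, 5.10 and 8.65 FPKM in tumours 1, 2 and 3, with tumour 3 high. With the trends removed it was at 5.56, 4.62 and 6.62 FPKM. It exceeded its paralog Orai2 (0.736, 1.31 and 1.62 FPKM) by 5.26-, 3.90- and 5.35-fold, or 2.16 ± 0.24 on the log2(FPKM + 0.1) scale, in 3 of 3 tumours (limma adjusted p = 0.00068 and 0.0013, with 48.9% of genes called above Orai2). Orai3, the third channel of the family, was higher than Orai1, at 6.69, 11.8 and 14 FPKM. Orai1 minus Orai3 was -0.88 ± 0.27, negative in 3 of 3 tumours, with limma adjusted p = 0.019 against 0.070 by the second calculation; 66.9% of genes were called below Orai3. Without tumour 2 or tumour 3 the first was 0.28 and 0.050, which misses the threshold of 0.05.

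Both sensors of the store were at higher levels than the channel. Stim1 was at 8.26, 14.8 and 16.4 FPKM and Stim2 at 15.1, 11.8 and 9.13 FPKM in tumours 1, 2 and 3. Orai1 minus Stim1 was -1.17 ± 0.31 log2 units (limma adjusted p = 0.0065 and 0.022) and Orai1 minus Stim2 was -1.07 ± 0.93 (0.011 and 0.028), both negative in 3 of 3 tumours. Of all genes, 71.9% were called below Stim1 and 70.7% below Stim2. The difference from Stim2 was -1.94 in tumour 1 and -0.08 in tumour 3. Leaving out tumour 2 gave adjusted p = 0.11 for Stim1 and 0.28 for Stim2, and leaving out tumour 1 gave -0.64 for Stim2 (0.056).

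Pthlh (mm9 chromosome 6, 147200632 to 147212607) was at 3.11, 3.05 and 3.95 FPKM in tumours 1, 2 and 3, on 120, 113 and 163 implied fragments. Its mean was 3.37 ± 0.501 FPKM (SD, n = 3), above 1 FPKM by limma (adjusted p = 0.00021), and its deposited intervals overlapped between all tumours. The receptor gene Pth1r was lower, at 0.154, 0.403 and 0.595 FPKM, and Pthlh exceeded it by 20.2-, 7.56- and 6.63-fold, or 2.95 ± 0.62 on the log2(FPKM + 0.1) scale, in 3 of 3 tumours (limma adjusted p = 3.3e-09 and 0.00025, with 62.5% of genes called above Pth1r). Keratinocytes are another known source of PTHrP. The 5 keratinocyte markers summed to 1.84, 2.80 and 3.08 FPKM (2.53, 2.55 and 2.47 FPKM with the GC and length trends removed). Most of the deposited sum came from Sbsn at 1.18, 2.24 and 2.55 FPKM, the one called above 1 FPKM. Krt10 was at 0.629, 0.560 and 0.486 FPKM, Krt1 had at most 0.0424 FPKM, and Ivl and Lor were listed at 0 in all tumours. The part of these cells in the Pthlh values was not tested.

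By mean level the order was Atp2a2, Atp2c1, Atp2b1, Orai1, Pthlh, Atp2c2, Atp2b4, Atp2a3, Atp2b2 and Atp2b3. Atp2a2 exceeded Atp2c1 by 1.52 ± 0.66 log2 units in 3 of 3 tumours (limma adjusted p = 0.0092 and 0.0037, with 6.54% of genes called above Atp2c1), though without tumour 2 or tumour 3 the first was 0.27 and 0.072. Atp2c1 and Atp2b1 were not separated (0.60 ± 0.59, limma adjusted p = 0.54), but were without tumour 1 (0.91, 0.00031). Atp2b1 and Orai1 were not separated either (0.75 ± 1.49, limma adjusted p = 0.23), and their order was the reverse in tumour 3; the adjusted p was 0.0053 with the trends removed and 0.049 with pseudocount 1. Orai1 exceeded Pthlh in 3 of 3 tumours by 0.71 ± 0.40 (limma adjusted p = 0.031 and 0.12, with 32.5% of genes called above Pthlh), and without tumour 2 or tumour 3 the first was 0.17 and 0.21. Pthlh, Atp2c2 and Atp2b4 overlapped, with differences of 0.21 ± 0.52 and 0.19 ± 1.20 between neighbours (limma adjusted p = 0.72 and 0.79). Below them came a gap: Atp2b4 exceeded Atp2a3 by 3.05 ± 1.29 in 3 of 3 tumours (limma adjusted p = 6.2e-08 and 0.00029, with 65.5% of genes above Atp2a3), and Atp2a3 exceeded Atp2b2 by 1.15 ± 0.86 in 3 of 3 (limma adjusted p = 0.0028 and 0.022, with 76.9% above Atp2b2), the first being 0.10 without tumour 3. These neighbouring pairs were set after the levels were known.

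Differences between the tumours were tested for the 7 genes whose mean reached 1 FPKM, by Cochran's Q on the deposited standard errors, which hold counting error only. Atp2b1, Atp2b4, Atp2c1, Atp2c2 and Orai1 passed with a ratio of highest to lowest of at least 2, which is 5 of 7; over all 11193 genes tested, 32.1% passed. The ratios were 3.45 for Atp2b1 (Q = 1795), 2.66 for Atp2c2 (adjusted p = 7.6e-30), 2.63 for Atp2b4 (3.5e-42), 2.23 for Orai1 (7.4e-21) and 2.18 for Atp2c1 (1.6e-132). Atp2a2 passed the Q test at a ratio of 1.14 (adjusted p = 6.8e-12), and 90.5% of all genes did so at any ratio (77.3% with the trends removed). Pthlh did not, at a ratio of 1.30 (adjusted p = 0.069), but passed with the trends removed, at 4.19, 2.77 and 3.22 FPKM in tumours 1, 2 and 3 and a ratio of 1.51 (adjusted p = 0.013). Of the 5 genes, Atp2b1 and Atp2c1 were highest in tumour 1, Atp2b4 in tumour 2, and Atp2c2 and Orai1 in tumour 3; of all genes tested, 15.5%, 3.61% and 13.0% passed with their highest value in tumours 1, 2 and 3.

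With the GC and length trends removed, Atp2b1 and Atp2b4 passed, 2 of 7, and 16.9% of all genes. Atp2b1 was then at 14.4, 7.07 and 8.26 FPKM in tumours 1, 2 and 3, a ratio of 2.04, with tumour 1 still high. Atp2b4 was at 2.01, 4.63 and 1.72 FPKM, a ratio of 2.68, with tumour 2 still high. The ratios of Atp2c2, Orai1 and Atp2c1 came to 1.76, 1.43 and 1.22. Orai1 also missed the ratio of 2 with FPKM rescaled to equal totals (1.95) and with median-of-ratios scaling (1.73). As deposited, the genes of lowest transcript GC content, Atp2c1 and Atp2b1 at 41.2% and 42.6%, were highest in tumour 1, and those of highest content, Orai1, Atp2c2 and Atp2a3 at 58.6%, 57.7% and 57.3%, were highest in tumour 3.

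**Figure D4:**
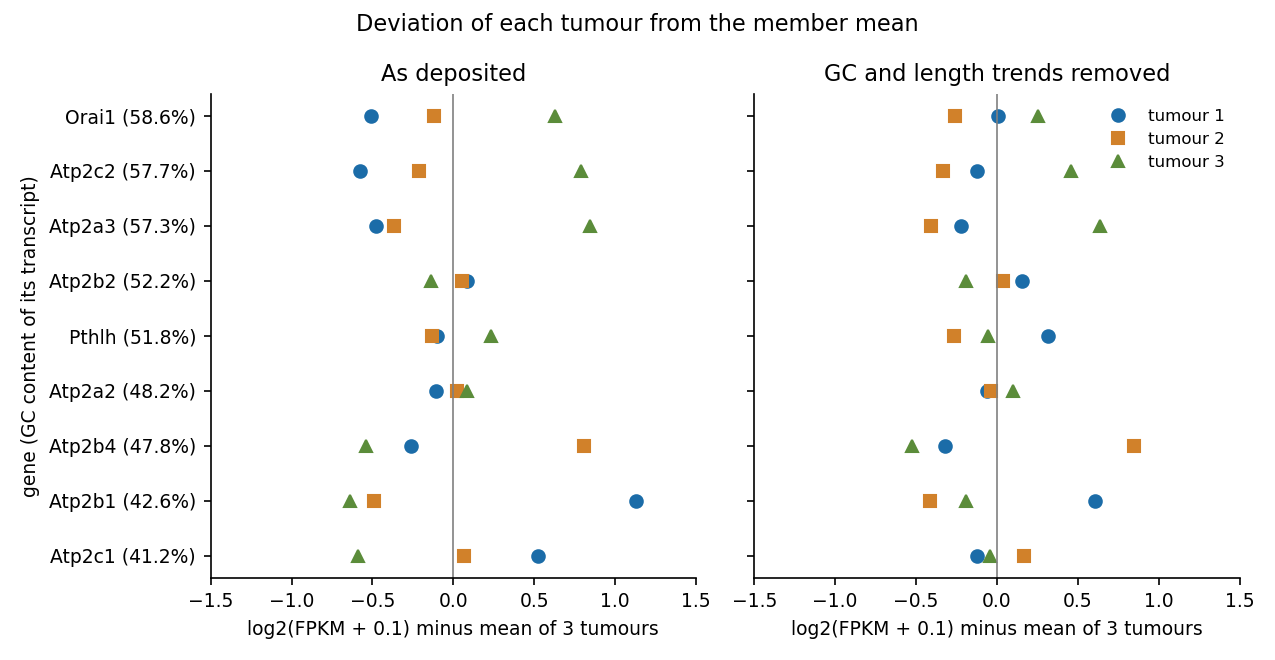
Deviation of each tumour from the mean of log2(FPKM + 0.1), for the 9 genes listed above 0, ordered by GC content of the transcript, as deposited (left) and with GC and length trends removed (right). Atp2b4 keeps its high value in tumour 2 in both panels, while the spread of Atp2c1 shrinks.

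Marker genes beside the high Atp2b4 of tumour 2 were measured as well. Basal and myoepithelial markers summed to 23.97, 54.9 and 42.9 FPKM in tumours 1, 2 and 3 (29.95, 50.5 and 37.7 FPKM with the trends removed). Of the 7, 3 were highest in tumour 2, 2 in tumour 1 and 2 in tumour 3. Most of the sum was Acta2, at 18.3, 41.5 and 38.8 FPKM. The basal keratin Krt14 was at 2.80, 10.4 and 1.07 FPKM. Krt5, at most 0.150 FPKM, was highest in tumour 3, and Trp63, at 0.325, 0.111 and 0.0787 FPKM, in tumour 1. Fibroblast markers summed to 117, 177 and 138 FPKM (130, 169 and 127 FPKM with the trends removed), with 3 of 5 highest in tumour 2. Their part in the Atp2b4 value was not tested. Leaving out tumour 2 also ended the call of Atp2b4 above 1 FPKM (limma adjusted p = 0.15), and leaving out tumour 1 ended the call of a difference for Atp2b1, at a ratio of 1.11. Without tumour 1 the genes that differed were 2, Atp2b4 and Atp2c2, and without tumour 3 they were 2, Atp2b1 and Atp2b4.

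Other genes of calcium handling were taken from 9 lists with 87 entries, of which 82 were measured. Above 1 FPKM lay 46 and below it 27, against 54.2% and 32.5% of all genes tested, while 4 were listed at 0 in all tumours. Their median was 4.19 FPKM. Of 48 tested between tumours, 18 differed by the Q test and ratio, against 32.1% of all genes, and 5 with the trends removed, against 16.9%.

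Store-operated entry had 6 of 8 genes above 1 FPKM, against 54.2% of all genes tested. They were led by Saraf, a brake on that entry (listed under its older symbol Tmem66), at 50.2 ± 13.8 FPKM, Cracr2b at 26.1 ± 6.05 FPKM and Stim1 at 13.2 ± 4.32 FPKM, and the lowest was Cracr2a at 0.465 ± 0.211 FPKM. Orai3, Orai2 and the STIM activator Stimate differed between tumours as deposited, at ratios of 2.09, 2.20 and 2.19. None of the 3 did with the trends removed, at 1.16, 1.35 and 1.49. Release channels had 4 of 7 above 1 FPKM, near the 54.2% of all genes tested. The inositol trisphosphate receptors Itpr3 and Itpr1 were at 12.0 ± 3.90 and 10.8 ± 0.587 FPKM and the leak channel Tmco1 at 12.0 ± 0.949 FPKM, whereas the ryanodine receptor Ryr2 of heart muscle was at 0.0049 ± 0.0050 FPKM.

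Exchangers, of which only some lie in the plasma membrane, had 1 of 9 above 1 FPKM and 6 below, against 54.2% and 32.5% of all genes tested. The one above was the mitochondrial exchanger Slc8b1 at 3.42 ± 1.05 FPKM, followed by the plasma membrane exchanger Slc8a1 at 0.714 ± 0.137 FPKM and Slc24a5 at 0.546 ± 0.331 FPKM, with Slc24a2 listed at 0. In the list of Atp2a1 and 3 measured SERCA regulators only Tmem64, a SERCA2 modulator, was above 1 FPKM (2.65 ± 0.281 FPKM). Phospholamban, Pln, the SERCA inhibitor of heart, was at 0.862 ± 0.389 FPKM and not separated from it, and sarcolipin, Sln, was listed at 0. Plasma membrane channels had 4 of 13 above and 9 below. Trpm7 was at 10.0 ± 8.00 FPKM with 19.2 FPKM in tumour 1, 4.21 times its lowest value as deposited but 1.59 times, and no longer called, with the trends removed. Trpv4 was at 6.75 ± 1.73 FPKM and the epithelial calcium channel Trpv6 at 4.89 ± 1.75 FPKM, while the T-type channel gene Cacna1h was at 0.0152 ± 0.0144 FPKM.

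Of 13 genes around PTHrP and calcium sensing 4 were above 1 FPKM and 7 below, against 54.2% and 32.5% of all genes tested. The G protein genes Gnas and Gna11, which relay PTHrP and calcium-sensing receptors, were at 117 ± 19.8 and 12.8 ± 3.84 FPKM, and the receptor accessory gene Ramp1 at 23.3 ± 8.38 FPKM. The parathyroid hormone gene Pth was listed at 0. The calcium-sensing receptor gene Casr, which governs PTHrP output of mammary cells, had 0.0326 FPKM in tumour 2 and was listed at 0 elsewhere; it is named after its value was seen.

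Some calcium-binding chaperones and calmodulins were at higher levels than any pump gene. All 12 measured genes of calcium binding in the endoplasmic reticulum and Golgi were above 1 FPKM, against 54.2% of all genes tested. They were led by Calr at 469.9 ± 156 FPKM, Hspa5 at 441 ± 162 FPKM and Hsp90b1 at 203 ± 165 FPKM, and the lowest was Rcn3 at 8.36 ± 3.20 FPKM. Hsp90b1 and Nucb2 differed most between tumours, at ratios of 5.41 and 4.34, or 2.92 and 2.43 with the trends removed, where both were still called. Calmodulin activates the PMCA pumps, and Calm2 was at 197 ± 6.81 FPKM. Basigin (Bsg), a PMCA partner subunit, was at 481 ± 132 FPKM, and Cask, which binds PMCA4, at 5.46 ± 2.84 FPKM with a ratio of 2.88 between tumours (2.36, still called, with the trends removed). Neuronal nitric oxide synthase, Nos1, was listed at 0. Of these 8 partner and calmodulin genes 7 were above 1 FPKM, against the same 54.2%. Mitochondrial uptake had 7 of 8 genes above 1 FPKM, also against 54.2%. They were led by Vdac1 (139 ± 34.6 FPKM), the uniporter subunit Smdt1 (34.2 ± 12.8 FPKM) and Micu2 (13.2 ± 3.14 FPKM), and Mcub was lowest at 0.872 ± 0.683 FPKM. Between tumours 4 of 7 differed, against 32.1% of all genes tested. Among them were Micu3, Mcu and Smdt1 at ratios of 3.40, 2.24 and 2.23 (1.23, 1.72 and 1.23 with the trends removed, none called).

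**Figure D5:**
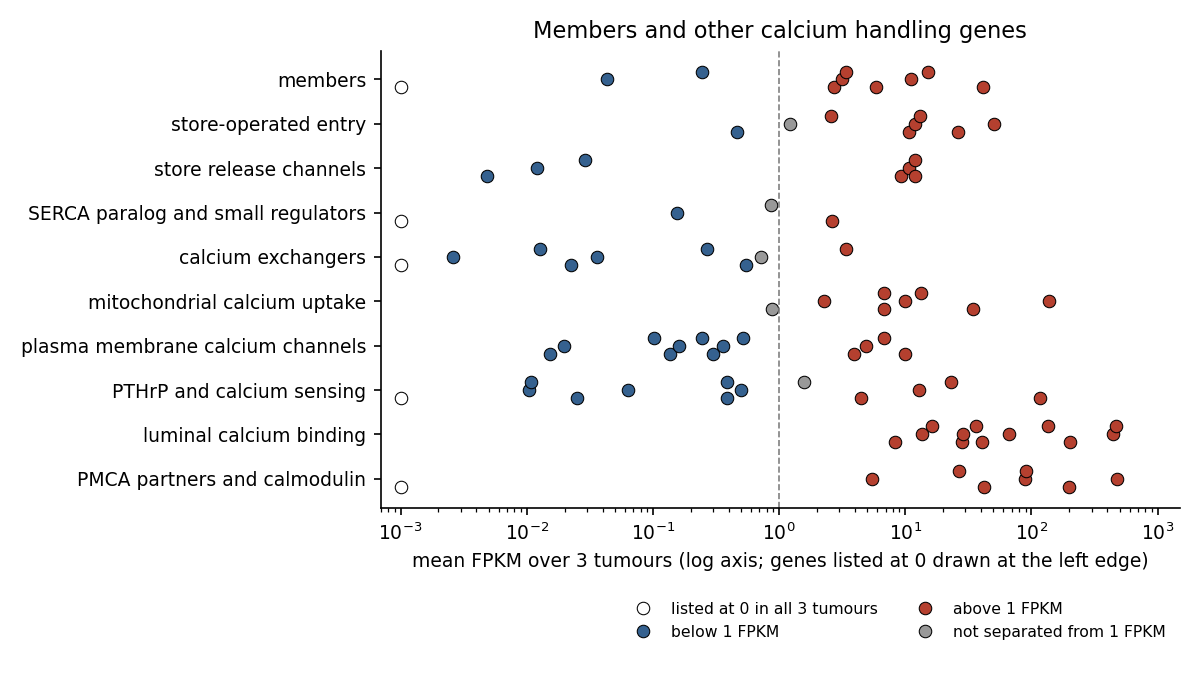
Mean FPKM over 3 tumours on a log axis for the 10 genes (top row, members) and for each list of other calcium handling genes; colours give the limma call against 1 FPKM, and genes listed at 0 are drawn at the left edge. Exchangers and plasma membrane channels lie mostly left of the dashed line at 1 FPKM, chaperones and calmodulins mostly right of it.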

How the data were processed

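Each deposited table lists FPKM for every gene together with interval bounds and a status, per the file headers, from directional libraries made after removal of ribosomal RNA, per the labels' protocols. The submitters' processing notes name TopHat, Cufflinks and mm9 without roles; of versions, annotation and strand setting nothing is stated there. Each bound was taken to lie 2 standard errors from its value, which gives implied fragments and covers counting error only; no count test was run. A count of 0 allows 3 fragments, 0.0436, 0.0456 and 0.0409 FPKM at the median locus in tumours 1, 2 and 3. Tumours are numbered in accession order, and the titles' other numbers are unexplained.

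Rows of 221 repeated symbols were summed, and 182 symbols with a status other than OK were left out of tests, Canx and Cacna1c among the listed genes. Each gene's level on the log2(FPKM + 0.1) scale was set against 1 FPKM with limma 3.58.1 (R 4.3.3), intercept only, with trend and robust moderation. The added 0.1 makes fold changes of low genes too small. Atp2b3, listed at 0, entered no test, so its planned pair with Atp2b1 has no value. Cochran's Q with 2 degrees of freedom used SciPy 1.17.1. GC content and length came from GENCODE vM21 by name (98.3% of symbols), and lowess (span 0.3) took out the trends. Tests were tried on simulated data. The alternatives were another pseudocount, filter, scaling, moderation or ratio, trend removal and leaving out each tumour.

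Members, lists and pairs were chosen with earlier results of these data known. Named genes are the members, their partners in pairs, Erbb2, Csn3 and Lalba, and of each list the 3 highest, the lowest and up to 3 that differed between tumours. A gene that this rule names is not reported here. Casr, Csn2, Wap, Stat5a, Stat5b, Krt14 and other markers were added after their values were seen. Older symbols stood for 13 listed genes, and 4 could not be matched to a row.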

Additional observations from a re-analysis of the deposited data

How the results depend on the processing

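No paired analysis was possible because the samples form 1 group. Of 184 recomputed main results, 169 kept their direction and their side of the threshold, or lay within 1.5 times the count or 1 SD of the value. The number of genes below 1 FPKM was 0 with a filter at a mean of 0.5 FPKM, which removes Atp2a3 and Atp2b2, and 1 with FPKM rescaled to a total of 1000000. The number differing between tumours was 2 with the GC and length trends removed and ran from 2 to 4 when 1 tumour was left out. Atp2b4 minus Atp2b1 was -1.57 with pseudocount 1 (adjusted p = 0.054) and ran from -2.52 to -1.17 with a tumour left out. On leaving out a tumour Atp2c2 minus Atp2c1 ran from -2.97 to -1.73, Orai1 minus Orai3 from -0.98 to -0.73, Orai1 minus Stim1 from -1.30 to -0.996 and Orai1 minus Stim2 from -1.57 to -0.64. Orai1 minus Orai3 kept -0.88 but not its call (adjusted p = 0.070) with standard errors from the level fit, an alternative chosen after seeing the data, as were the neighbouring pairs. With 2 tumours left, fewer samples enter each of these fits. Signs turned for uncalled neighbours, Atp2b1 minus Orai1 (-0.066 to 1.39) and Pthlh minus Atp2c2 (-0.031 to 0.49) without tumour 1 and Atp2c2 minus Atp2b4 (-0.47 to 0.70) without tumour 3, each range being over the 3 tumours left out. Rescaling, which lifts every gene, put Cracr2a, Mcub, Pln, Slc24a5 and Slc8a1 above 1 FPKM, at log2 levels of 0.26, 0.96, 1.13, 0.43 and 0.93, of which Pln and Slc8a1 passed. Leaving out a tumour, Mcub ran from -0.94 to 0.0099 and Orai2 from -0.02 to 0.50. The cause was not tested for these turns beyond their construction. Depth limits Atp2b2, which rests on at most 7.91 implied fragments a tumour, and Atp2b3, which has none.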
